A study of Drosophila melanogaster with 9 samples.

Results

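The genes described here are the glutathione S-transferase (Gst) and UDP-glycosyltransferase (Ugt) genes of *Drosophila melanogaster*, chosen by symbol: every gene whose symbol starts with Gst or Ugt, except *GstZ1* and *GstZ2*. They number 68 of the 16700 genes in the table, 33 of them Gst and 35 Ugt genes. The rule uses symbols only, but the members were chosen with earlier results of these data known. Hearts were dissected from adult mated females of the w1118 strain, 10 days old in every group by the study's account and the sample titles. By the sample descriptions 15 hearts were pooled per library, and their RNA was sequenced after removal of ribosomal RNA. The groups were a high sugar diet (HSD, normal food with 30% sucrose) for 10 days, a high fat diet (HFD, normal food with 30% coconut oil) for the last 3 days after 7 days on normal food, and the normal diet (ND) for 10 days. Each diet had 3 libraries, A, B and C, and all flies shared the strain, the sex and the mating scheme, so the rich diets differ from each other in length as well as in content. The study asked how rich diets alter the transcriptome of the heart.

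Glutathione S-transferases join the tripeptide glutathione to reactive or fat-soluble compounds, among them insecticides and the aldehydes left by oxidized lipids, and some also act as peroxidases. UDP-glycosyltransferases join a sugar, taken from a UDP-sugar, to small fat-soluble molecules of the diet or of the body. Both steps make their substrates more soluble in water and ready for export, and in insects both families are large, grow by tandem duplication and are best known from the fat body, the midgut and the Malpighian tubules.

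Levels are reads per kilobase of exon, relative to all reads on genes in the library (RPKM), and were then scaled. Each library was divided by the median ratio of its values to the genes' geometric means, over genes above 0 in every library. They can be compared between genes since they are per length. A gene was tested when its scaled RPKM averaged at least 0.5 over the 9 libraries, which held for 40 of the 68 genes (24 Gst and 16 Ugt). Differential expression means that limma gave a gene a p under 0.05 after Benjamini-Hochberg adjustment over all 8359 genes tested, with a fold change of at least 1.5. Fold changes are on the scale log2(scaled RPKM + 0.5), which understates those of weakly expressed genes. Libraries held 59941761 to 90069216 reads on genes, and tested Gst and Ugt genes rested on at least 53 reads per library, rebuilt from the RPKM.

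The libraries held markers of heart muscle and of other tissues. All 13 markers of heart muscle were above the test's minimum (*Hand* averaged 235 RPKM and *Mlc2* 739 RPKM) and limma found none of them differentially expressed in any of the 3 comparisons (0, 1 and 1 had an unadjusted p under 0.05, and limma-voom on rebuilt reads called 0 of 9). Pericardial nephrocytes lie beside the heart muscle. Their 6 matched markers summed to 201 to 333 RPKM on HSD, 278 to 388 RPKM on HFD and 310 to 419 RPKM on ND. Limma and limma-voom called none of them (2, 0 and 2 had an unadjusted p under 0.05). The lowest in HSD versus ND were *Amnionless* at -0.76 (adjusted p = 0.055, limma) and *Klf15* at -0.55 (adjusted p = 0.063, limma). The summed level of 10 fat body markers was 36512 to 44206 RPKM on HSD, 21483 to 24885 RPKM on HFD and 62759 to 90166 RPKM on ND. Of the markers, 4 (the storage protein gene *Lsp2* and the yolk protein genes *Yp1*, *Yp2* and *Yp3*) fell on both rich diets. Most of the sum came from *Yp1*, *Yp2* and *Yp3*, which averaged 11638, 17937 and 15377 RPKM. The other 4 tested, *apolpp*, *AkhR*, *Lpin* and *Ilp6*, were not differentially expressed against ND. Their log2 fold changes were -0.06, 0.25, -0.43 and -0.43 in HSD versus ND. In HFD versus ND they were -0.67, -0.17, -0.26 and -0.04. Of these, *Lpin* in HSD versus ND had an adjusted p of 0.041 in limma but lay under the 1.5-fold limit. The value of *apolpp* in HFD versus ND had an adjusted p of 0.052 in limma. In HSD versus HFD *apolpp* was differentially expressed, at 0.61 (adjusted p = 0.037, limma). Markers of oenocytes, the cells that make cuticle lipids, summed to 56588 to 67778 RPKM on HSD, 48840 to 60657 RPKM on HFD and 39112 to 54090 RPKM on ND, most of it from *Cyp4g1*. Eggshell markers reached 780 RPKM in ND library C and 2.32 to 110 RPKM in the other 8 libraries. Of 6 Malpighian tubule markers only the ion cotransporter gene *NKCC* was tested, and *Uro* and *CapaR* were near 0. Fewer cells of a type and less RNA per cell cannot be told apart in such bulk samples, and the part of the fat body signal in the results below was not tested.

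The heart expressed the 2 families very unevenly. Summed over its 33 genes, the Gst family had 1593 ± 86.3 RPKM on HSD, 1485 ± 94.5 RPKM on HFD and 1794 ± 120 RPKM on ND (SD, n = 3 each). *GstD1*, *GstE12* and *GstE9* made up 56.6% of that sum. The 35 Ugt genes summed to 286 ± 11.5 RPKM on HSD, 264 ± 3.67 RPKM on HFD and 324 ± 18.3 RPKM on ND, 53.4% of it from *Ugt36D1*, *Ugt35C1* and *Ugt49B1*. For both families every HSD and every HFD library lay below every ND library after scaling. Before scaling, the Gst sum of HFD library C lay above that of ND library B. Against ND, the Gst sum was 0.888 times as high on HSD and 0.828 times on HFD, and the Ugt sum was 0.883 times as high on HSD and 0.816 times on HFD.

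**Figure D1:**
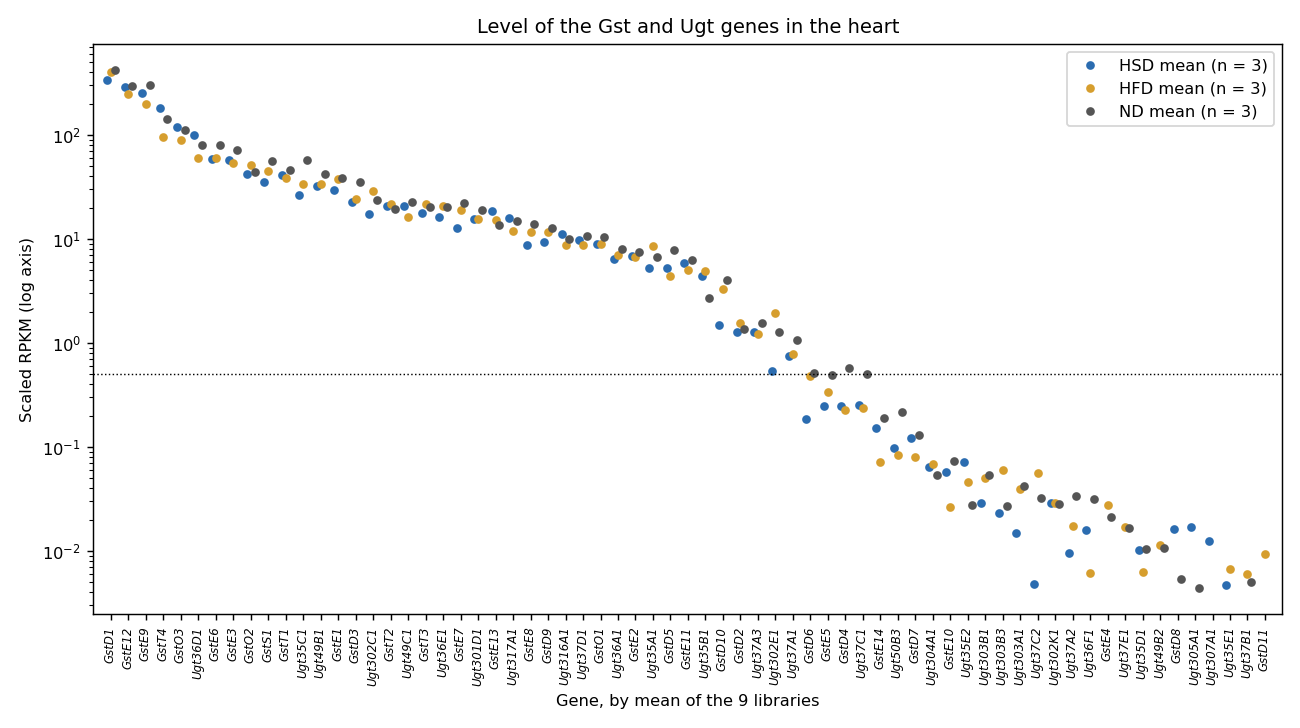
Mean scaled RPKM (log axis) of the Gst and Ugt genes on HSD, HFD and ND (n = 3 libraries each), ordered by the mean of the 9 libraries; means of 0, and 1 gene at 0 in every library, are not drawn, and the dotted line marks 0.5 RPKM. The 40 genes tested run down from *GstD1* at 388 RPKM to *Ugt37A1* at 0.867 RPKM.

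The highest of all was *GstD1*, a Delta class enzyme known to remove chlorine from DDT, at 388 RPKM over the 9 libraries. *GstE12* followed at 278 RPKM and *GstE9* at 253 RPKM, both of the Epsilon class, then *GstT4* of the Theta class at 141 RPKM and *GstO3* of the Omega class at 108 RPKM. In this order by level, libraries of *GstE12* and *GstE9* overlapped on HSD and ND but not on HFD, and those of *GstT4* and *GstO3* overlapped only on HFD. The 28 genes below the test's minimum included 19 Ugt and 9 Gst genes and gave 0.0879% of the Gst sum and 0.287% of the Ugt sum. They ranged from *GstD6* at 0.392 RPKM to *Ugt303B2*, which had no read in any library. For *Ugt303B2* a count of 0 allows up to 0.0270 RPKM in the shallowest library, taking 3 reads as the limit for counting error alone. Since the handling of reads shared by close copies is not given, low values in these families do not show that a gene was silent.

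A small set of these genes was lower on HSD than on ND. Of the 40 tested, 6 were differentially expressed, all lower on HSD: *GstD10*, *GstD3*, *GstE7*, *GstE8*, *Ugt35C1* and *Ugt302E1*. Over all genes tested 3.3% were differentially expressed in this comparison 2.56% lower and 0.742% higher, against 15% of these 40. The log2 fold change was below 0 in 32 of the 40, with a median of -0.26, where it was below 0 in 49.5% of all genes tested, with a median of 0.00. Libraries of HSD and ND did not overlap for 20 of the 40 (17 lower and 3 higher on HSD), where this held for 29.2% of all genes, 14.3% lower and 14.9% higher.

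On HFD fewer genes passed the test against ND. Differentially expressed were 2 of the 40, *GstD5* and *Ugt35C1*, both lower on HFD, where 1.91% of all genes were differentially expressed, 1.45% lower and 0.467% higher. The log2 fold change was below 0 in 30 of the 40, with a median of -0.25, against 46.1% of all genes and a median of 0.02. Libraries of HFD and ND did not overlap for 21 of the 40 (16 lower and 5 higher on HFD), against 23.3% of all genes, 12% lower and 11.3% higher. The HSD and HFD comparisons share their ND libraries.

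Between the rich diets the differences went both ways. Here 6 of the 40 were differentially expressed, where 4.37% of all genes were: *Ugt302E1*, *GstD10*, *Ugt302C1* and *Ugt35A1* were lower on HSD than on HFD, and *GstT4* and *Ugt36D1* were higher. Lower calls made up 2.61% and higher calls 1.76% of all genes. The median log2 fold change of the 40 was -0.04, against -0.01 for all genes, and libraries of HSD and HFD did not overlap for 19 of the 40, against 29.9% of all genes. In all, 11 of the 68 genes were differentially expressed in at least 1 comparison.

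**Figure D2:**
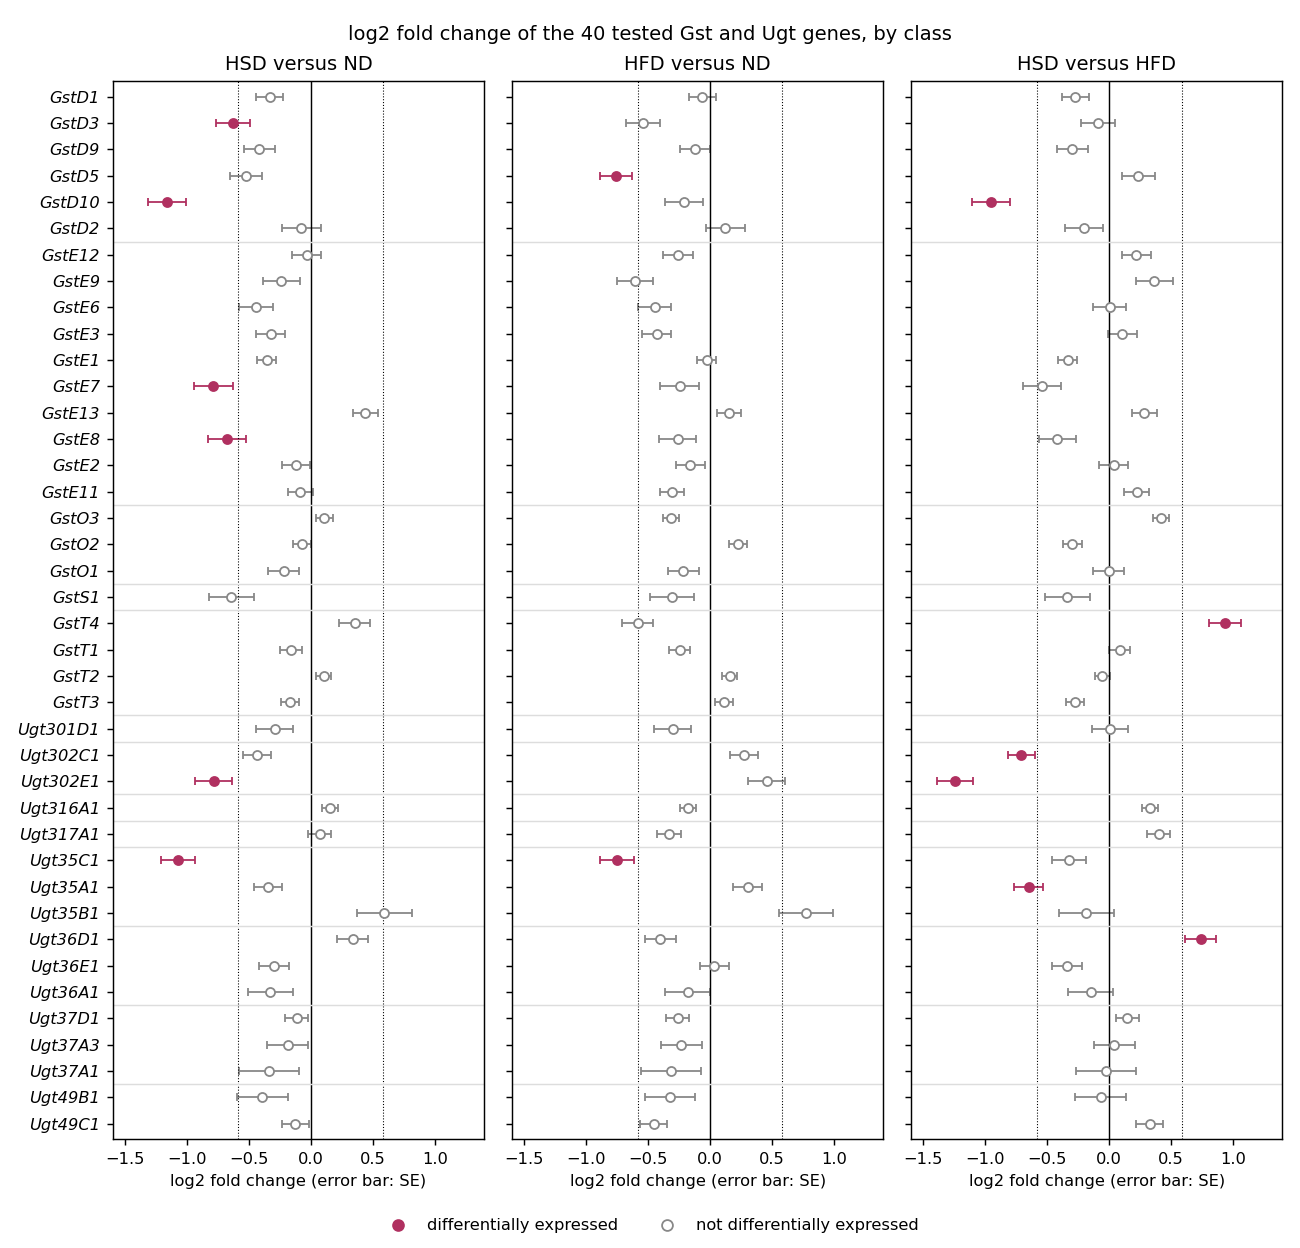
log2 fold change (x axis, with the SE as error bar) of the 40 tested Gst and Ugt genes against ND for HSD (left) and HFD (middle) and for HSD against HFD (right), by class and then by level; filled points are differentially expressed and dotted lines mark 1.5-fold. Left of 0 lie 32 of 40 points in the left panel, 30 in the middle one and 22 in the right one.

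Among the Delta class genes, *GstD10* had the largest difference in HSD versus ND. It measured 1.75, 1.35 and 1.39 RPKM on HSD, 3.55, 3.29 and 3.20 RPKM on HFD, and 3.45, 3.35 and 5.25 RPKM on ND. Its HSD libraries lay below all 6 others, while HFD and ND overlapped. *GstD10* fell by 1.16 on the log2 scale in HSD versus ND (SE 0.15, adjusted p = 0.0048, limma) and by 0.95 in HSD versus HFD (SE 0.15, adjusted p = 0.0071, limma). Both calls held when each of the 9 libraries was left out in turn. A gene of low level, it rested on 86 to 345 reads per library.

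*GstD3* measured 20.5, 21.7 and 25.9 RPKM on HSD, 22.3, 20.8 and 30.1 RPKM on HFD, and 35.2, 37.2 and 33.6 RPKM on ND. Both rich diets lay below ND without overlap, and HSD and HFD overlapped. It fell by 0.63 on the log2 scale in HSD versus ND (SE 0.14, adjusted p = 0.031, limma), and its value in HFD versus ND was -0.54 (adjusted p = 0.074, limma). *GstD5*, a few kb further along, measured 5.24, 4.85 and 5.70 RPKM on HSD, 4.38, 3.61 and 5.29 RPKM on HFD, and 7.55, 6.98 and 8.87 RPKM on ND, again with ND above all 6 others. It fell by 0.76 in HFD versus ND (SE 0.13, adjusted p = 0.023, limma). In HSD versus ND its log2 fold change of -0.52 had an adjusted p of 0.049 in limma but lay under the 1.5-fold limit.

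*GstD1*, the most abundant gene of both families, measured 325, 328 and 353 RPKM on HSD, 374, 385 and 459 RPKM on HFD, and 472, 405 and 393 RPKM on ND. HSD lay below both other diets without overlap, yet its log2 fold change in HSD versus ND, -0.33 (SE 0.11, adjusted p = 0.11, limma), did not pass the test. In RPKM its difference, -88.0 RPKM, was the largest single one in the Gst sum on HSD, whose net difference was -200.1 RPKM with *GstT4* at 39.5 RPKM the other way. *GstD9* (-0.42 in HSD versus ND) and *GstD2* (-0.08) were not differentially expressed in any comparison. Of the 11 Delta genes the 6 tested all had log2 fold changes below 0 in HSD versus ND, with a median of -0.47, and 5 of the 6 did in HFD versus ND, with a median of -0.16.

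All 11 Delta genes lie in 1 cluster on chromosome arm 3R, from 12364776 to 12385624 in the BDGP6 assembly. *GstD10*, at its lower end, lies at 12364776 to 12365735 on the minus strand, and *GstD3* (12373068 to 12373813) and *GstD5* (12375733 to 12376572) on the plus strand. *GstD4*, *GstD6*, *GstD7*, *GstD8* and *GstD11* were too low to be tested, at 0.392 RPKM or less; all but *GstD4* lie beyond *GstD5*, at the upper end of the cluster. *GstD4* (0.350 RPKM) stands between *GstD3* (27.5 RPKM) and *GstD5* (5.83 RPKM), each read over the 9 libraries. The part of reads shared by close copies in such differences was not tested.

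**Figure D3:**
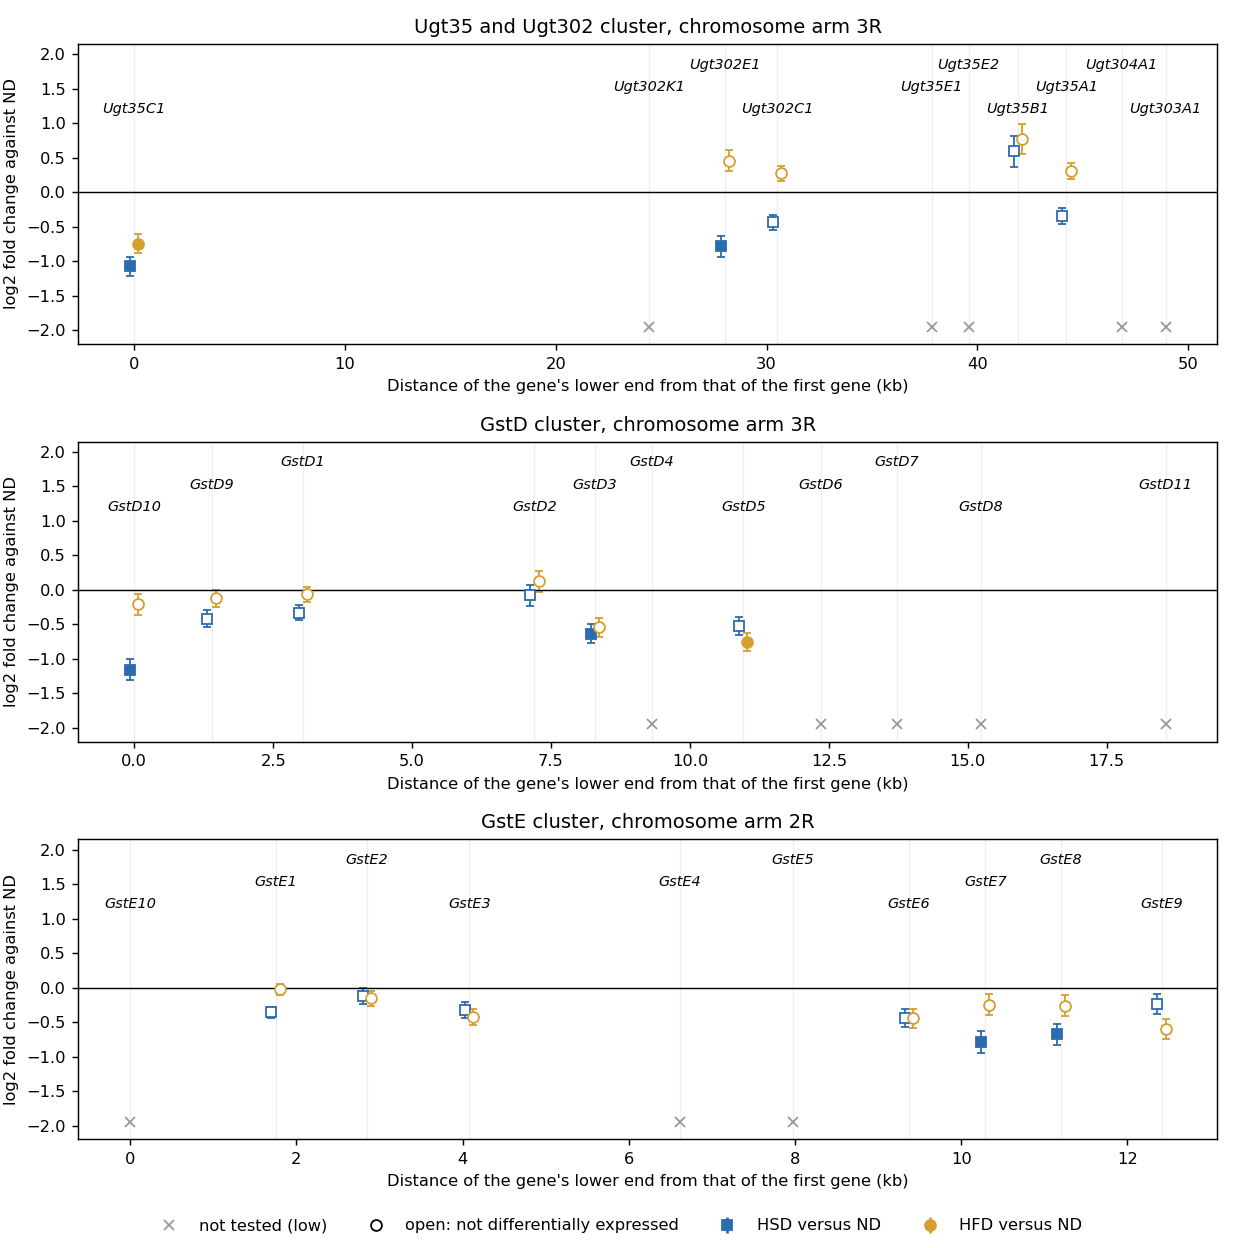
log2 fold change against ND (y axis, SE as error bar) of the genes in 3 tandem clusters, placed by distance in kb from the lower end of the first gene; squares are HSD versus ND, circles HFD versus ND, filled where differentially expressed, and crosses at the bottom mark genes too low to test. *Ugt302E1*, *Ugt302C1* and *Ugt35A1* have HSD below 0 and HFD above 0, *Ugt35C1* has both below, and *Ugt35B1* has both above.

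In the Epsilon class, whose enzymes are known for conjugating aldehydes from oxidized lipids, the calls fell on a pair of neighbours. *GstE7* measured 14.6, 11.2 and 12.4 RPKM on HSD, 16.4, 16.9 and 23.4 RPKM on HFD, and 25.4, 19.5 and 22.2 RPKM on ND. *GstE8* measured 10.3, 7.04 and 8.74 RPKM on HSD, 9.89, 11.5 and 13.8 RPKM on HFD, and 15.5, 12.7 and 14.0 RPKM on ND. For both, HSD lay below ND without overlap and HFD overlapped ND. In HSD versus ND *GstE7* fell by 0.79 on the log2 scale (SE 0.16, adjusted p = 0.023, limma) and *GstE8* by 0.68 (SE 0.15, adjusted p = 0.034, limma). In HSD versus HFD neither passed, with log2 fold changes of -0.54 for *GstE7* (adjusted p = 0.063, limma) and -0.42 for *GstE8* (adjusted p = 0.13, limma). *GstE7* is 1 of 10 members whose values stood beside another gene's label in the table, and under the label as listed its value in HSD versus ND would be 0.25.

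No abundant Epsilon gene was differentially expressed. *GstE9* measured 283, 226 and 261 RPKM on HSD, 167, 231 and 201 RPKM on HFD, and 351, 272 and 286 RPKM on ND, with HFD below ND and HSD overlapping both. Its log2 fold change in HFD versus ND was -0.60 (SE 0.15, adjusted p = 0.065, limma), past 1.5-fold but not past the test. Its difference on HFD was -103 RPKM of a net -309 RPKM for the Gst sum. *GstE12* measured 333, 278 and 259 RPKM on HSD, 239, 271 and 234 RPKM on HFD, and 332, 274 and 284 RPKM on ND, and its log2 fold changes were -0.04 in HSD versus ND and -0.26 in HFD versus ND.

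*GstE13* was the only tested Epsilon gene above 0 in HSD versus ND. It lies outside the GstE cluster on 2R, as do *GstE11*, *GstE12* and *GstE14*. *GstE13* measured 18.6, 18.2 and 19.5 RPKM on HSD, 15.0, 17.9 and 13.3 RPKM on HFD, and 14.0, 14.2 and 12.9 RPKM on ND. Its log2 fold change of 0.44 (SE 0.10, adjusted p = 0.034, limma) was under the 1.5-fold limit. Of the 10 Epsilon genes tested, 9 were below 0 in HSD versus ND (median -0.28) and 9 in HFD versus ND (median -0.26). The GstE cluster holds 10 genes on 2R from 18396638 to 18409835, of which *GstE10*, *GstE4* and *GstE5* were too low to test, and *GstE7* (18406924 to 18407688) and *GstE8* (18407834 to 18408955) are single-exon genes on the plus strand.

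*GstT4*, a Theta class gene on the X chromosome (13404749 to 13409323, plus strand), gave the largest difference between the rich diets among the abundant genes. It measured 188, 167 and 195 RPKM on HSD, 85.0, 90.7 and 112 RPKM on HFD, and 125, 150 and 157 RPKM on ND. The diets did not overlap in any pair: HSD was highest, HFD lowest, and ND between them. It was higher in HSD than in HFD by 0.94 on the log2 scale (SE 0.13, adjusted p = 0.0033, limma), a 1.91-fold difference that held without any one of the 9 libraries. In HFD versus ND its log2 fold change was -0.58 (SE 0.13, adjusted p = 0.049, limma), just under the 1.5-fold limit of 0.585, and in HSD versus ND it was 0.35 (adjusted p = 0.15, limma). The other Theta genes, *GstT1*, *GstT2* and *GstT3*, had log2 fold changes between -0.28 and 0.16 in the 3 comparisons. Of the exon length of *GstT2*, 25.1% overlaps *CG12926* on the other strand, and since the strand setting of the counting is not given, reads of the pair may be mixed.

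Omega class enzymes reduce dehydroascorbate and mixed disulfides with glutathione. *GstO3* measured 126, 122 and 114.5 RPKM on HSD, 89.4, 88.7 and 92.0 RPKM on HFD, and 116, 113 and 107 RPKM on ND, so that HFD lay below both other diets. Its log2 fold changes of 0.42 in HSD versus HFD (SE 0.06, adjusted p = 0.0057, limma) and -0.31 in HFD versus ND (adjusted p = 0.043, limma) passed the adjusted p but not the 1.5-fold limit. *GstO2*, its neighbour on 3L, had log2 fold changes of -0.30 in HSD versus HFD (adjusted p = 0.042, limma) and 0.23 in HFD versus ND (adjusted p = 0.15, limma). *GstO1* was at -0.22 in both HSD versus ND and HFD versus ND and was not differentially expressed. *GstS1*, the only Sigma class gene and one known from muscle, measured 42.6, 30.7 and 33.6 RPKM on HSD, 55.9, 36.9 and 43.3 RPKM on HFD, and 65.9, 47.7 and 54.1 RPKM on ND. HSD lay below ND, with a log2 fold change of -0.64 (SE 0.18, adjusted p = 0.070, limma) that missed the test.

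**Figure D4:**
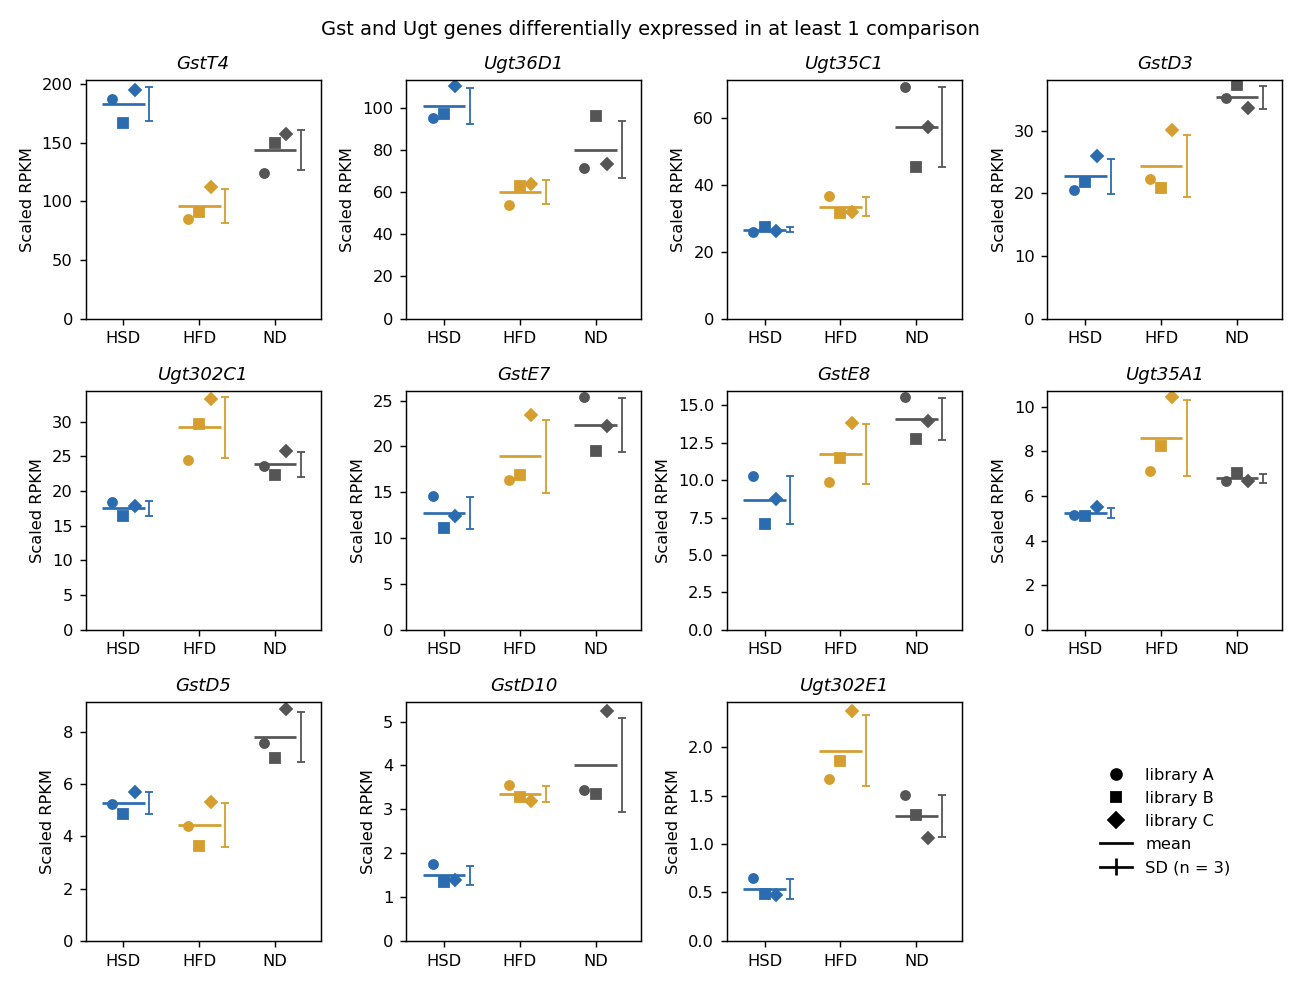
Scaled RPKM (linear axes from 0) in each library of HSD, HFD and ND for the 11 Gst and Ugt genes differentially expressed in at least 1 comparison; symbols mark libraries A, B and C, lines the mean and bars the SD (n = 3). *GstD10* and *Ugt302E1* have HSD below both other diets, *GstT4* has HSD above and HFD below ND, and *Ugt35C1* has both rich diets below ND.

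Among the Ugt genes, *Ugt35C1* was the one called differentially expressed, and lower, on both rich diets. It measured 26.1, 27.5 and 26.3 RPKM on HSD, 36.9, 31.7 and 32 RPKM on HFD, and 69.3, 45.3 and 57.3 RPKM on ND. No HSD or HFD library reached any ND library, and the ND libraries were the most spread (SD 12.0 RPKM, against 0.752 RPKM on HSD and 2.90 RPKM on HFD). *Ugt35C1* fell by 1.07 on the log2 scale in HSD versus ND (SE 0.14, adjusted p = 0.0044, limma) and by 0.75 in HFD versus ND (SE 0.14, adjusted p = 0.028, limma). In HSD versus HFD its value was -0.32 (adjusted p = 0.18, limma). In RPKM its difference was -30.7 of a net -37.8 RPKM for the Ugt sum on HSD, where *Ugt36D1* differed by 20.6 RPKM the other way, and -23.8 of -59.7 RPKM on HFD. Without it the Ugt sum was 273, 249 and 257 RPKM on HSD, 231, 231 and 229 RPKM on HFD, and 274, 262 and 263 RPKM on ND, so HSD then overlapped ND and HFD did not.

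*Ugt302E1* and *Ugt302C1*, adjacent genes of family 302, both took their lowest level on HSD and their highest on HFD. *Ugt302E1* measured 0.654, 0.486 and 0.469 RPKM on HSD, 1.67, 1.85 and 2.37 RPKM on HFD, and 1.5, 1.3 and 1.06 RPKM on ND, with no overlap in any pair of diets. It fell by 1.24 on the log2 scale in HSD versus HFD (SE 0.15, adjusted p = 0.0022, limma) and by 0.78 in HSD versus ND (SE 0.15, adjusted p = 0.019, limma), and its value in HFD versus ND was 0.46 (adjusted p = 0.14, limma). It is the lowest of the differentially expressed members, with 53 to 294 reads per library. *Ugt302C1* measured 18.5, 16.4 and 17.8 RPKM on HSD, 24.5, 29.7 and 33.3 RPKM on HFD, and 23.6, 22.3 and 25.9 RPKM on ND, where HFD and ND overlapped. It fell by 0.71 in HSD versus HFD (SE 0.11, adjusted p = 0.0061, limma), a call that its realigned label carries, since the label as listed gives -0.17 there. In HSD versus ND its value was -0.43 (adjusted p = 0.052, limma).

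*Ugt35A1* had the same order of diets: 5.13, 5.09 and 5.49 RPKM on HSD, 7.12, 8.23 and 10.4 RPKM on HFD, and 6.68, 7.01 and 6.68 RPKM on ND, with no overlap in any pair. It fell by 0.65 on the log2 scale in HSD versus HFD (SE 0.12, adjusted p = 0.011, limma). Without HFD library C, its highest, the value was -0.51 and under the 1.5-fold limit. The next gene, *Ugt35B1*, measured 5.81, 4.57 and 2.90 RPKM on HSD, 5.84, 4.51 and 4.50 RPKM on HFD, and 3.21, 2.11 and 2.78 RPKM on ND. HFD lay above ND and HSD overlapped both, and its log2 fold changes of 0.77 in HFD versus ND (SE 0.22, adjusted p = 0.10, limma) and 0.59 in HSD versus ND (SE 0.22, adjusted p = 0.16, limma) did not pass the test.

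These 5 genes stand in 1 cluster of 10 Ugt genes on 3R from 11126597 to 11177910, in the order *Ugt35C1* (11126597 to 11128328, minus strand), *Ugt302E1* (11154626 to 11156513, plus), *Ugt302C1* (11157098 to 11159744, plus), *Ugt35B1* (11168503 to 11170246, minus) and *Ugt35A1* (11170817 to 11172664, minus). The other 5 genes of the cluster, *Ugt302K1*, *Ugt35E1*, *Ugt35E2*, *Ugt304A1* and *Ugt303A1*, were at 0.0624 RPKM or less. The cluster held 4 of the 5 Ugt genes differentially expressed in any comparison. *Ugt35C1*, 1 of these 4, stands apart from the rest. The next gene, *Ugt302K1*, starts at 11151026, a gap not far below the 25 kb limit that joins them. By the same rule, neighbours less than 25 kb apart, 49 of the 68 genes fell into 10 clusters.

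The fifth, *Ugt36D1* (2L, 18823548 to 18826716, plus strand), was the most abundant Ugt gene. It measured 95.0, 96.8 and 110 RPKM on HSD, 53.6, 63.1 and 63.7 RPKM on HFD, and 71.4, 95.8 and 73.0 RPKM on ND. HSD and ND overlapped, and HFD lay below both. It was higher in HSD than in HFD by 0.74 on the log2 scale (SE 0.13, adjusted p = 0.0091, limma), with values of 0.34 in HSD versus ND (adjusted p = 0.16, limma) and -0.40 in HFD versus ND (adjusted p = 0.13, limma). *Ugt36E1*, which starts just after it, ran the other way, at -0.34 in HSD versus HFD (adjusted p = 0.12, limma). *Ugt49B1*, the third most abundant, measured 32.2 ± 7.34 RPKM on HSD, 33.8 ± 7.72 RPKM on HFD and 42.1 ± 7.11 RPKM on ND (SD, n = 3 each), and the diets overlapped in all 3 comparisons. The 3 tested genes of family 37 and *Ugt301D1* had log2 fold changes between -0.34 and 0.15, and *Ugt316A1* and *Ugt317A1* reached 0.33 and 0.40 in HSD versus HFD, under the 1.5-fold limit (adjusted p = 0.014 and 0.031, limma).

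How firmly the calls stood differed between the comparisons. In HSD versus ND, *GstD10* and *Ugt35C1* were called in all 9 fits that left out 1 library, *Ugt302E1* in 6, *GstE7* in 5, and *GstE8* and *GstD3* in 4. Without HSD library B or without ND library A the 6 calls became 2, *GstD10* and *Ugt35C1*. Without HSD library C they were 3, with *GstD3* the third, and without ND library C, the one with the most eggshell RNA, they were 3, with *Ugt302E1* the third. Over these fits the highest adjusted p in limma was 0.085 for *Ugt302E1*, 0.096 for *GstE7*, 0.13 for *GstE8* and 0.12 for *GstD3*. In HFD versus ND the 2 limma calls became 0 without HFD library A, HFD library B or ND library C (21, 19 and 14 of the 40 then had an unadjusted p under 0.05, against 21 with all libraries), and 4 without HFD library C. *Ugt35C1* lost its HFD call in 5 of the 9 fits, with log2 fold changes from -0.90 to -0.60, and *GstD5* in 4, from -0.88 to -0.64. In HSD versus HFD 5 of the 6 calls held in all 9 fits. With 3 libraries against 3 the exact two-sided permutation test cannot go below 0.1, the value of all 14 of these calls.

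Other steps of the same chemistry were read from lists of related genes. In limma none of the 9 tested genes of glutathione synthesis and recycling was differentially expressed in any comparison (1 had an unadjusted p under 0.05 in HSD versus ND, 1 in HFD versus ND and 2 in HSD versus HFD, and limma-voom called 0). *Gclc* and *Gclm*, the subunits of the enzyme that begins glutathione synthesis, had log2 fold changes of 0.09 and -0.13 in HSD versus ND and -0.15 and 0.03 in HFD versus ND. *Trxr1*, the thioredoxin reductase that also recycles glutathione in flies, was at 0.07 in HSD versus ND and 0.15 in HFD versus ND. *Men*, a source of NADPH, measured 578, 560 and 602 RPKM on HSD, 573, 827 and 691 RPKM on HFD, and 897, 819 and 809 RPKM on ND, and its value of -0.54 in HSD versus ND (adjusted p = 0.043, limma) was under the 1.5-fold limit. *Gss1*, *Gss2* and *Grx1t* are listed at 0 in every library. Since the handling of reads shared by close copies is not given, these values do not show that the genes were silent.

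Of the 3 other genes of glutathione transferase activity, *GstZ2*, a Zeta class gene, fell by 0.62 on the log2 scale in HFD versus ND (adjusted p = 0.046, limma). It measured 1.83, 1.77 and 1.67 RPKM on HSD, 1.89, 1.66 and 1.26 RPKM on HFD, and 2.42, 2.55 and 3.18 RPKM on ND. In HSD versus ND its value was -0.50 (adjusted p = 0.055, limma), and limma-voom called 1 of the 3 genes in that comparison. The 11 tested regulators of detoxification genes, among them the Nrf2 homolog *cnc*, its inhibitor *Keap1* and the nuclear receptor *Hr96*, had no differentially expressed gene in any comparison in limma or limma-voom (1, 3 and 3 had an unadjusted p under 0.05). *cnc* was at -0.07 in HSD versus ND and -0.21 in HFD versus ND, and *Keap1* at 0.17 and 0.16. The value of *foxo* in HSD versus HFD, -0.35, passed the adjusted p (0.0062, limma) but not the 1.5-fold limit. Against ND *foxo* was at -0.21 on HSD (adjusted p = 0.061, limma) and 0.15 on HFD (adjusted p = 0.20, limma).

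Genes that make or use UDP-sugars gave calls in the comparisons with HSD. *Glys*, glycogen synthase, which uses UDP-glucose, measured 59.8, 44.8 and 46.9 RPKM on HSD, 79.5, 86.1 and 71.2 RPKM on HFD, and 86.4, 72.0 and 79.7 RPKM on ND. It fell by 0.65 on the log2 scale both in HSD versus ND (adjusted p = 0.019, limma) and in HSD versus HFD (adjusted p = 0.015, limma). The phosphoglucomutase gene *Pgm2a* was lower in HSD than in HFD by 0.85 (adjusted p = 0.0021, limma). Against ND it was at 0.49 on HFD (adjusted p = 0.040, limma), under the 1.5-fold limit, and at -0.36 on HSD (adjusted p = 0.070, limma). *UGP*, which makes UDP-glucose, was at -0.69 in HSD versus ND (adjusted p = 0.062, limma).

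Export and hydrolysis genes were read in the same way. Of 7 tested transporters, the organic anion transporter gene *Oatp30B* was lower in HSD than in HFD by 0.61 (adjusted p = 0.013, limma). *Oatp74D*, the ecdysone importer, was higher in HSD than in HFD by 0.75 (adjusted p = 0.0013, limma). None was called against ND by limma or limma-voom (3 had an unadjusted p under 0.05 on HSD and 2 on HFD). Some passed the adjusted p there but not the 1.5-fold limit. In HSD versus ND these were *Oatp30B* at -0.54 (adjusted p = 0.027, limma) and *Oatp74D* at 0.44 (adjusted p = 0.017, limma). In HFD versus ND it was *MRP* at -0.35 (adjusted p = 0.049, limma). Of 12 tested esterase, epoxide hydrolase and reductase genes, *a-Est7* fell by 0.78 in HSD versus ND (adjusted p = 0.015, limma) and by 0.62 in HFD versus ND (adjusted p = 0.048, limma). *Est-6* was lower in HSD than in HFD by 1.13 (adjusted p = 0.010, limma). Against ND it was at 0.70 on HFD (adjusted p = 0.10, limma) and -0.43 on HSD (adjusted p = 0.27, limma).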

How the data were processed

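Per the sample descriptions and the study's methods, the authors trimmed reads with Sickle, aligned them to dm3 with Subread 1.6.1, counted them per gene with featureCounts 1.6.1 and renamed genes by dm6. The deposited table holds RPKM for 16700 genes in 9 libraries, with a decimal comma in 28.4% of the values. The handling of strand and of reads shared by close copies is not given in the sources used here. The sample descriptions give 15 hearts per library, and the published methods give another number.

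In 9 stretches of rows the values stood beside a neighbour's label, so labels were realigned. Multiplied by exon length (BDGP6) and library total, 95.5% of 2316 realigned rows gave whole reads (within 0.02), against 14.9% under the label as listed. RPKM were scaled by medians of ratios and fitted with limma 3.58.1 (R 4.3.3) on log2(scaled RPKM + 0.5), with diet as the only term, all 9 libraries and a variance trend. By the study's methods, each diet's 3 samples were collected on separate days, and each date gave a tube of flies for every diet.

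The members and lists were chosen with earlier results of these data known. Full values were given for genes called in a comparison, the 5 highest, the 3 largest uncalled differences in each comparison, and those whose call rests on realignment; *GstE13*, *GstO2* and *Ugt49B1* were added after their values were seen. Tandem clusters join genes less than 25 kb apart. Alternatives covered scaling, pseudocount, filter, variance trend, samples fitted, labels, limma-voom on rebuilt reads, a replicate term and each library left out. The authors' own test results were not used. For the list of UDP-sugar genes only single genes are given, since 1 item of it is not reported here.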

Additional observations from a re-analysis of the deposited data

How the results depend on the processing

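Of 66 log2 fold changes of 22 named Gst and Ugt genes, recomputed under up to 20 alternatives each (1269 values), 36 lost the call, 8 gained one, and 1 called value changed sign: *GstE7* in HSD versus ND, at 0.25 with labels as listed. The sign also changed in values that were not called, for 24 changes in all over 13 fold changes. Of these 9 came with labels as listed, and the others touched only fold changes of 0.18 or less in size, such as *GstD1* in HFD versus ND (-0.06, and 0.05 with RPKM as deposited). The genes called in HFD versus ND (2) became 0 in limma with no filter on low values (24 had an unadjusted p under 0.05), 0 with only the 6 libraries compared (21), 3 in limma-voom, and 4 with no fold change limit; in HSD versus HFD (6) they became 12 with no fold change limit. Over all genes, no fold change limit gave 559 calls in HSD versus ND (276 with it), 247 in HFD versus ND (160) and 789 in HSD versus HFD (365), and no filter gave 81 in HFD versus ND. Leaving out 1 library gave 2 to 6 Gst and Ugt calls in HSD versus ND, 0 to 4 in HFD versus ND and 5 to 6 in HSD versus HFD, and 106 to 298, 47 to 164 and 239 to 439 over all genes. The summed Gst level then ranged from 0.865 to 0.924 times ND on HSD and 0.803 to 0.861 on HFD, and the Ugt level from 0.861 to 0.911 on HSD and 0.795 to 0.841 on HFD.

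With RPKM as deposited the Gst sum on HFD was 0.896 and the Ugt sum 0.882 times ND. That scaling moved the median log2 fold change of all genes by 0.101, to 0.118, in HFD versus ND, left 28 of 40 Gst and Ugt genes below 0 and 30 of 40 below that median, and changed the split over all genes from 39 higher and 121 lower to 87 higher and 96 lower; in HSD versus HFD the split moved from 147 higher and 218 lower to 115 higher and 277 lower. *GstT4* in HFD versus ND was called with a pseudocount of 0.1 and in limma-voom on rebuilt reads. The causes were not tested.

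The labels do not say whether the letters A to C mark shared collection days, and deviations of same-letter libraries correlated from -0.254 to 0.265, so the samples were not treated as paired. A replicate block gave 7, 2 and 6 Gst and Ugt calls (the seventh was *GstS1* in HSD versus ND, at -0.64 with an adjusted p of 0.0037 in limma) and 282, 161 and 377 over all genes. Among the genes called, *GstD10* and *Ugt302E1* rest on the fewest reads.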
